A study of Saccharomyces cerevisiae with 593 samples.

Results

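The genes described here encode parts of the machinery with which budding yeast, Saccharomyces cerevisiae, makes messenger RNA: a subunit of RNA polymerase II, general transcription factors, TBP-associated factors (TAFs), Mediator, the SAGA coactivator, elongation factors and phosphatases of the polymerase's tail. They were chosen by symbol from the array's annotation, which names 982 genes on 1457 oligos, each spotted in 6 copies. The symbol pattern matched 29 genes. SPT14, an enzyme of GPI anchor synthesis with 18 spots, was left out by the limit on spots, and SRB2 and TAF14, with 3 oligos each, were kept by an exception written for them. This left 28 genes on 32 oligos, 26 of them with 1 oligo. Locus tags are given where a gene is first described; no sequence and no coordinates are given, since no genome build is named in the sources used here.

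The series holds 593 two-colour hybridisations, each of which set cDNA of a treated, starved or mutant culture beside cDNA of a control culture. Wild type cells were exposed to 1 M KCl, 300 mM LiCl, 0.5 M NaCl, heat shock at 42 degrees Celsius, 50 mM 3-aminotriazole (3-AT, an inhibitor of histidine synthesis), 5 ug/mL sulfometuron methyl (SMM, an inhibitor of branched-chain amino acid synthesis), 200 ng/mL rapamycin (an inhibitor of the TORC1 kinase) or 1 mg/mL wortmannin (an inhibitor of phosphatidylinositol kinases), or to media without amino acids, nitrogen, glucose or inositol. A strain with a hog1 deletion, which lacks the osmotic stress kinase, was given 1 M KCl. A his3 deletion strain and a strain in which that deletion had been repaired (HIS3) were depleted of histidine. These 15 courses were sampled after 5, 10, 20 and 40 min with 2 or more replicates at 20 min. Controls were untreated cells of the same strain and time, except for 3-AT, rapamycin and wortmannin, which were set over cells taken before treatment. The remaining groups, mostly of 1 replicate, hold other strains (ckb1, ckb2, ckb1ckb2, cka1, cka2, edc2 and rrp6 deletions), sorbitol, dithiothreitol (DTT), 20 uM TBB (a casein kinase 2 inhibitor), phosphate depletion and combined treatments; the strain background and whether replicates are separate cultures are not given in the sources used here, so p-values measure only the spread between these samples.

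Transcription of a yeast gene by RNA polymerase II begins when TBP, the TATA-binding protein, is brought to the promoter within TFIID or by SAGA, and when TFIIA, TFIIB, TFIIE and TFIIF join it. Mediator passes signals from activators to the polymerase. During elongation the polymerase's C-terminal domain is phosphorylated by kinases such as Ctk1 and dephosphorylated by Fcp1 and Ssu72, while Spt5 and the Paf1 complex travel with the enzyme. The machinery is known for carrying out stress responses, and the mRNA levels of its own genes are the quantity described here.

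Every value below is a log2 ratio of treated over control, in which 1 stands for a doubled and -1 for a halved level relative to the centre of the array. Copies of an oligo and both dye orientations were averaged into 1 replicate value, and group means were tested against 0 with limma in 1 fit, two-sided, with p-values adjusted over all 1457 named oligos. An oligo is called when the adjusted p is under 0.05. The spread of an oligo is estimated in that fit from all groups with replicates together. A p-value therefore rests on this common spread, while the SD printed beside it is that of 1 group. Because each array is centred near 0, a change of the total amount of mRNA is not visible, and in these bulk cultures a lower level in every cell and a loss from some cells cannot be told apart. Array medians lay between -0.039 and 0.048, missing spots made up a median of 4.64% of an array, and 26 arrays lacked over 20%. RRP6 was low in all 13 replicate values of the rrp6 deletion over wild type (median -2.16), as its label requires. The titles carry 9 prefixes, called batches A to I here; the batch B arrays exist in 1 dye orientation only, and 7 array identifiers of batch C, with treated RNA labelled as channel 2, correlated negatively with the other replicates of their groups over all named oligos. The correlation was -0.87 for the rapamycin identifier at 20 min, -0.91 at 40 min and -0.49 at 10 min, and lay between -0.20 and -0.09 for that at 5 min, wortmannin at 5 min and nitrogen depletion at 20 and 40 min. Their direction was kept as labelled. Member counts of each course at 20 min and calls of 40 against 5 min that they touch are also given with the sign turned. Other counts they touch, such as those at 5, 10 and 40 min and of other gene lists, are given as labelled only.

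After 20 min the machinery moved in a minority of cases, about as often as other genes on the array. Of 480 tests of a member oligo in a course, 49 were called, 25 higher and 24 lower, which is 10.21% against 12.84% for all named oligos. A member oligo was called in a median of 1 course, against 2 for all named oligos, and 10 of 32 were never called. TAF13 was the 1 member oligo called in 5 or more courses, a mark reached by 8.72% of all named oligos. By time, 33 of 480 tests were called at 5 min (6.88%, against 7.82% of all named oligos), 41 at 10 min (8.54%, against 10.6%) and 56 at 40 min (11.7%, against 13.9%). At 40 min, 36 of these were higher and 20 lower.

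**Figure D1:**
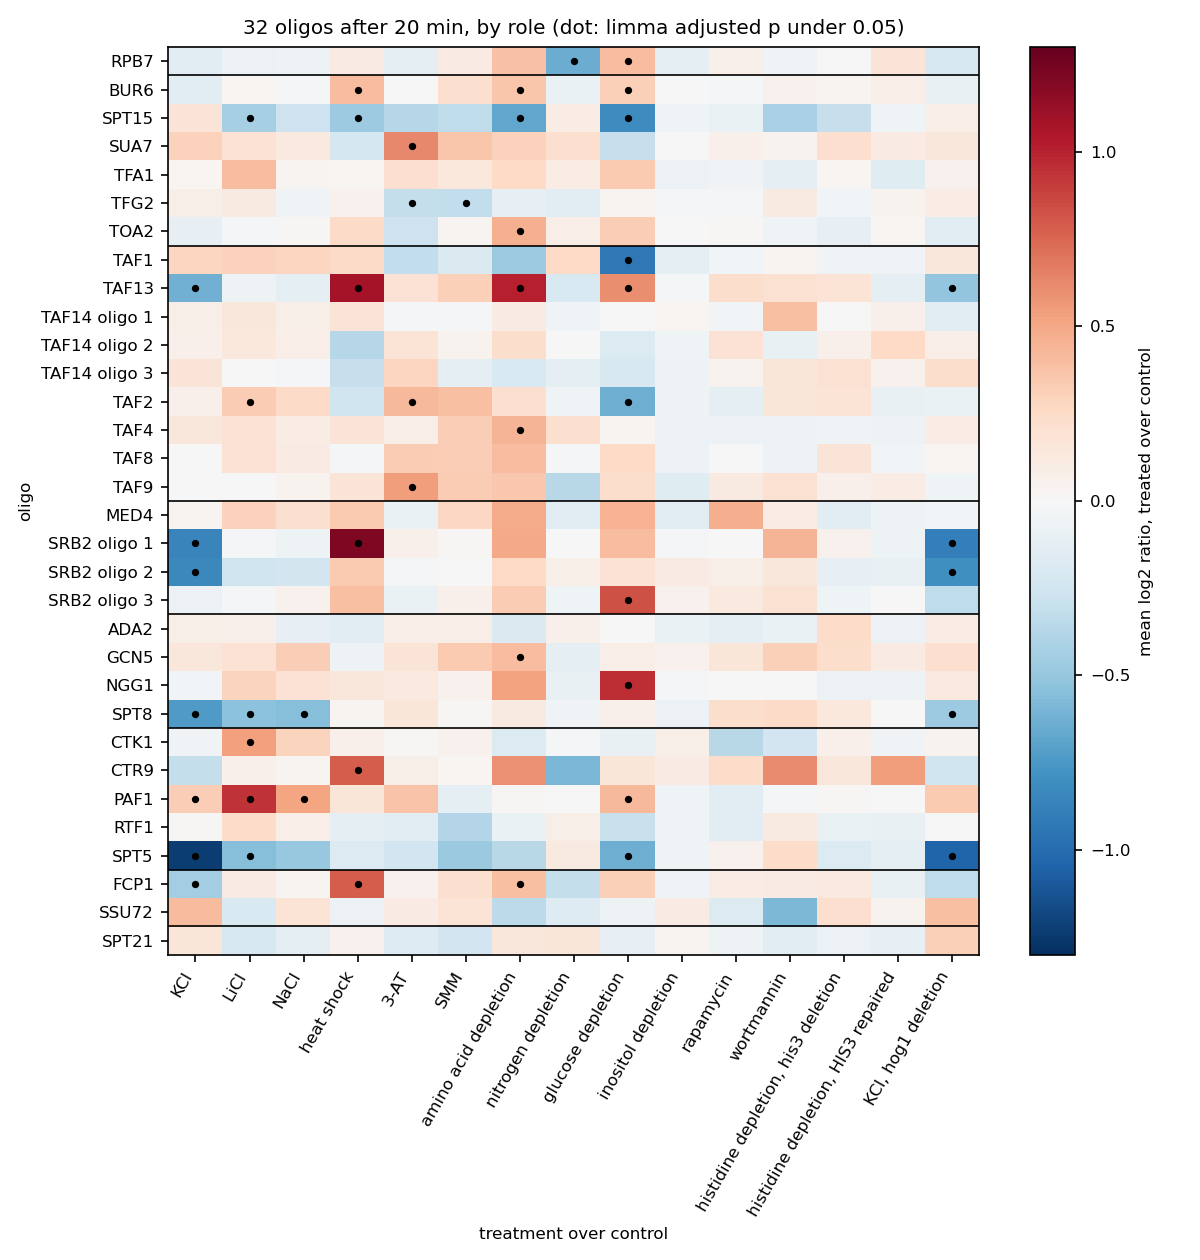
Mean log2 ratio of treated over control after 20 min for the 32 oligos (rows, grouped by role with black lines) in the 15 courses (columns); blue is lower, red is higher, and a dot marks a limma adjusted p under 0.05. SPT5 is the darkest blue cell in both KCl columns, SPT15 is blue and called in LiCl, heat shock, amino acid depletion and glucose depletion, and the inositol column is nearly blank.

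The count of called members differed between the treatments. In KCl 1 member oligo was called higher and 6 lower, where 14.8% and 14.3% of all named oligos were, or 29.2% in all. LiCl had 3 higher and 3 lower, against 17.2% and 16.6%, or 33.8% in all. In NaCl 1 rose and 1 fell, against 15.5% of all named oligos called. Heat shock raised 5 and lowered 1 (9.27% higher and 15.9% lower among all named oligos, 25.2% called). Amino acid depletion raised 6 and lowered 1 (10.3% and 12.4%, 22.7% called), and its members had a median of 0.26, against 0.02 for all named oligos. Glucose depletion, with 6 higher and 4 lower, had the highest count (15.3% and 13.8%, 29.1% called). In 3-AT 3 rose and 1 fell, where 9.13% of all named oligos were called, and SMM had 1 lower, against 6.18%. In the hog1 deletion strain KCl left 0 higher and 5 lower (2.61% and 5.08%, 7.69% called). Nitrogen depletion had 1 lower, where 0.137% of all named oligos were called, and 0 with the batch C identifiers turned. The remaining 5 courses had no called member at 20 min: inositol depletion (0.137% of all named oligos called), rapamycin (2.47%), wortmannin (10.7%), and histidine depletion of the his3 deletion strain (0.686%) and of the HIS3 strain (0%). At an unadjusted p under 0.05 these 5 had 0, 4, 4, 3 and 2 of 32 member oligos, against 0.961%, 17.2%, 25.5%, 6.93% and 1.78% of all named oligos. The rapamycin count was 7 with the batch C identifiers turned and 5 without them. Heat shock had 0 called members without its batch A replicate. Glucose depletion had 3 without arrays lacking over 20% of spots and 0 when fitted alone, amino acid depletion 1 and 3-AT 12 when fitted alone. KCl in the hog1 deletion strain had 0 to 2 without 1 replicate. The shares of all named oligos under these alternatives are not given here, and those above belong to the reported fit.

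Some values are given below although the rule for naming genes did not pick them: FCP1 in KCl and in amino acid depletion, BUR6 in heat shock, amino acid and glucose depletion, RPB7 in glucose depletion, single values at 5, 10 and 40 min, and ranges over groups of 1 replicate. These were chosen after they were seen.

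Among the elongation factors SPT5 fell and PAF1 rose in salt. They were called in 10 of 75 tests (13.3%, against 12.84% of all named oligos). SPT5 (YML010W) encodes the essential partner of Spt4 that binds the elongating polymerase. After 20 min in KCl its replicate values were -1.22, -1.29, -1.01 and -1.42, with a mean of -1.24 ± 0.17 (SD, n = 4; limma adjusted p = 1.92e-12). All 4 values were far below 0, and SPT5 was the lowest of the member oligos. It was already low after 5 min, at -1.31 ± 0.33 (n = 3; adjusted p = 8.79e-11), and stood at -1.11 ± 0.35 after 10 min and -1.18 ± 0.36 after 40 min. The course was thus flat within the SDs at 5, 10 and 40 min, and the level at 40 min was not called against that at 5 min. In the hog1 deletion strain the values at 20 min were -1.35 and -0.72, with a mean of -1.04 ± 0.45 (n = 2; adjusted p = 1.28e-04), and SPT5 was called at all 4 times there.

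LiCl lowered SPT5 less. Its replicate values at 20 min were -0.30, -0.80 and -0.56, with a mean of -0.55 ± 0.25 (n = 3; adjusted p = 0.00363), and the highest KCl value lies below the lowest LiCl value. In NaCl the values were -0.66 and -0.32, with a mean of -0.49 ± 0.24 (n = 2; adjusted p = 0.0788), which did not pass, although the mean of -0.64 after 10 min did (adjusted p = 0.0187). Glucose depletion gave -0.23 and -1.03, with a mean of -0.63 ± 0.57 (n = 2; adjusted p = 0.0103); these replicates lie far apart, and SPT5 was called there at 20 min only.

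KCl was also given in 7 further combinations of strain, agent and control, which hold 30 replicate values at 5 to 60 min: the ckb1ckb2, edc2 and rrp6 deletions over their own untreated cells, KCl with TBB, KCl with 3-AT, the wild type after 60 min, and the wild type over cells before treatment. SPT5 was below 0 in 30 of 30 of these values, from -2.02 to -0.36 with a median of -1.09, and it was the lowest member oligo in 25. In 1 M sorbitol, an osmotic agent without ions, the single replicate lay between -0.13 and 0.05 over 4 times. The spread over all named oligos was narrow there: at 20 min -0.243 lay at the 9.1 percentile. In wild type KCl over cells before treatment -0.485 lay at the 11.9 percentile. SPT5 stood at the 19.7 percentile in sorbitol and at the 0.5 percentile in that KCl group. These groups were not tested.

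**Figure D2:**
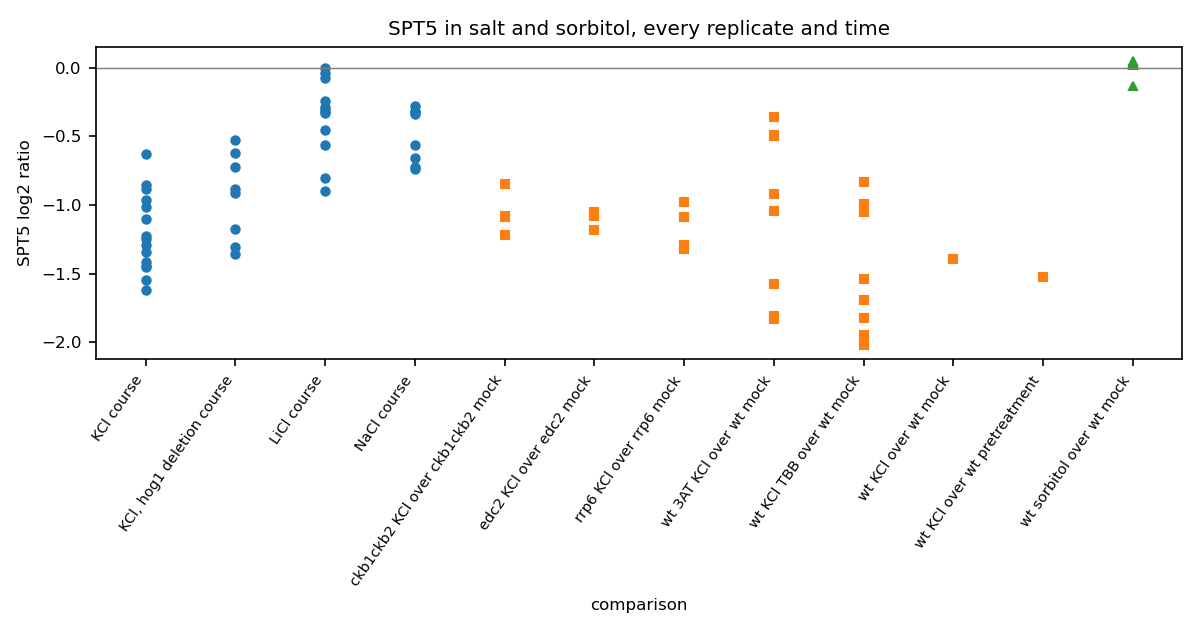
SPT5 log2 ratio (vertical axis) in each comparison with salt or sorbitol (horizontal axis); every point is 1 replicate value at 1 time, circles for the replicated courses, squares for other KCl groups and triangles for sorbitol. Every KCl point lies below 0, from -2.02 to -0.36 in the other KCl groups, while the 4 sorbitol points lie between -0.13 and 0.05. Sorbitol had a narrow spread over all named oligos.

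PAF1 (YBR279W), which names the complex that couples elongation to histone modification, rose in salt. In LiCl its values at 20 min were 0.80, 1.41 and 0.63, with a mean of 0.94 ± 0.41 (n = 3; adjusted p = 1.05e-09). This was the highest member mean in LiCl at that time, and the course began at 0.19 after 5 min and ended at 0.20 after 40 min. In KCl the values were 0.09, 0.64, 0.24 and 0.33, with a mean of 0.32 ± 0.23 (n = 4; adjusted p = 0.0206), and the mean reached 0.63 ± 0.15 after 40 min (adjusted p = 2.85e-06). NaCl gave 0.59 and 0.43 (mean 0.51 ± 0.11, n = 2; adjusted p = 0.0187), and glucose depletion gave 0.36 and 0.49 (mean 0.42 ± 0.10, n = 2; adjusted p = 0.0355). In the hog1 deletion strain PAF1 was called at 40 min, at 0.57 (adjusted p = 0.0146). It was above 0 in 28 of the 30 further KCl values, with a median of 0.38.

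The other elongation factors moved less often. CTK1 (YKL139W), the kinase subunit of a kinase of the polymerase's tail, rose in LiCl, with values of 0.29, 1.12 and 0.18 and a mean of 0.53 ± 0.51 (n = 3; adjusted p = 0.00153). The second of these values decided the call: without it the mean was 0.24 (adjusted p = 0.36). CTR9 (YOL145C), another subunit of the Paf1 complex, rose in heat shock, with values of 1.28 and 0.30 and a mean of 0.79 ± 0.69 (n = 2; adjusted p = 0.0255), and in amino acid depletion at 40 min, at 0.86 ± 0.50 (adjusted p = 0.0142). RTF1 (YGL244W), a further subunit, was not called at 20 min, where its means lay between -0.38 in SMM and 0.24 in LiCl; it was called at 40 min in LiCl, at 0.39 (adjusted p = 0.00792). The 3 measured subunits of the Paf1 complex were not called together in any course at 20 min: in heat shock their means were 0.79 for CTR9, 0.16 for PAF1 and -0.13 for RTF1.

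General transcription factors were called in 11 of 90 tests (12.2%, against 12.84% of all named oligos), 5 higher and 6 lower, and SPT15 made up 4 of the lower calls. SPT15 (YER148W) encodes TBP itself. In glucose depletion its values at 20 min were -1.04 and -0.59, with a mean of -0.82 ± 0.32 (n = 2; adjusted p = 4.02e-05). In amino acid depletion they were -0.72 and -0.64, with a mean of -0.68 ± 0.06 (n = 2; adjusted p = 9.73e-04). Both replicates were well below 0 in each of these, and those of amino acid depletion lay close together. LiCl gave -0.51, -0.29 and -0.50 (mean -0.43 ± 0.12, n = 3; adjusted p = 0.00621), and heat shock -0.41 and -0.54 (mean -0.47 ± 0.09, n = 2; adjusted p = 0.0233). The heat shock call was lost with batch as a random block (adjusted p = 0.113).

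SPT15 fell at different speeds. In heat shock the mean was lowest at the first time, -0.64 after 5 min, and went through -0.59 and -0.47 to -0.35 after 40 min, which no longer passed (adjusted p = 0.0936). In LiCl it went the other way, from 0.06 after 5 min through -0.28 and -0.43 to -0.55 after 40 min. In glucose depletion it was called at all 4 times, between -0.82 and -0.45. In KCl it did not pass: the values at 20 min were -0.33, 0.50, 0.44 and 0.05, with a mean of 0.17 ± 0.38 (n = 4; adjusted p = 0.298), and the batch A value was the one below 0.

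SUA7 (YPR086W), which encodes TFIIB, the factor that links TBP to the polymerase, rose in 3-AT. Its values at 20 min were 0.64, 0.43 and 0.81, with a mean of 0.63 ± 0.19 (n = 3; adjusted p = 0.00131), and it was called at 10 min (0.50) and 40 min (0.61) as well. All 3 replicates were above 0. In histidine depletion of the his3 deletion strain, which also withholds histidine, SUA7 passed at 40 min only, with values of 0.53, 0.39, 0.30 and 0.49 and a mean of 0.43 ± 0.11 (n = 4; adjusted p = 0.0351). In glucose depletion it was low after 5 min, at -0.54 ± 0.59 (n = 2; adjusted p = 0.0163), with -0.96 in batch B and -0.12 in batch F.

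TFG2 (YGR005C), the smaller conserved subunit of TFIIF, fell under both inhibitors of amino acid synthesis. In 3-AT the values were -0.36, -0.18 and -0.40, with a mean of -0.31 ± 0.12 (n = 3; adjusted p = 0.00307), and in SMM -0.36 and -0.28, with a mean of -0.32 ± 0.05 (n = 2; adjusted p = 0.0285). In LiCl it was raised after 40 min, with values of 0.56, 0.35 and 0.33 (mean 0.41 ± 0.13, n = 3; adjusted p = 1.24e-05). The remaining members of this role were higher wherever they were called at 20 min. BUR6 (YER159C), a subunit of the TBP regulator NC2, rose in heat shock (0.44 and 0.37, mean 0.41 ± 0.05; adjusted p = 0.00368). In amino acid depletion BUR6 stood at 0.14 and 0.57 (mean 0.36 ± 0.30; adjusted p = 0.0143). In glucose depletion its replicates were 0.31 and 0.31 (adjusted p = 0.0291), and it was called there at all 4 times, from 0.60 after 5 min to 0.28 after 40 min. TOA2 (YKL058W), the small subunit of TFIIA, was called in amino acid depletion from unlike values, 0.07 and 0.86 (mean 0.47 ± 0.56, n = 2; adjusted p = 0.0176). TFA1 (YKL028W), the large subunit of TFIIE, was not called at 20 min.

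**Figure D3:**
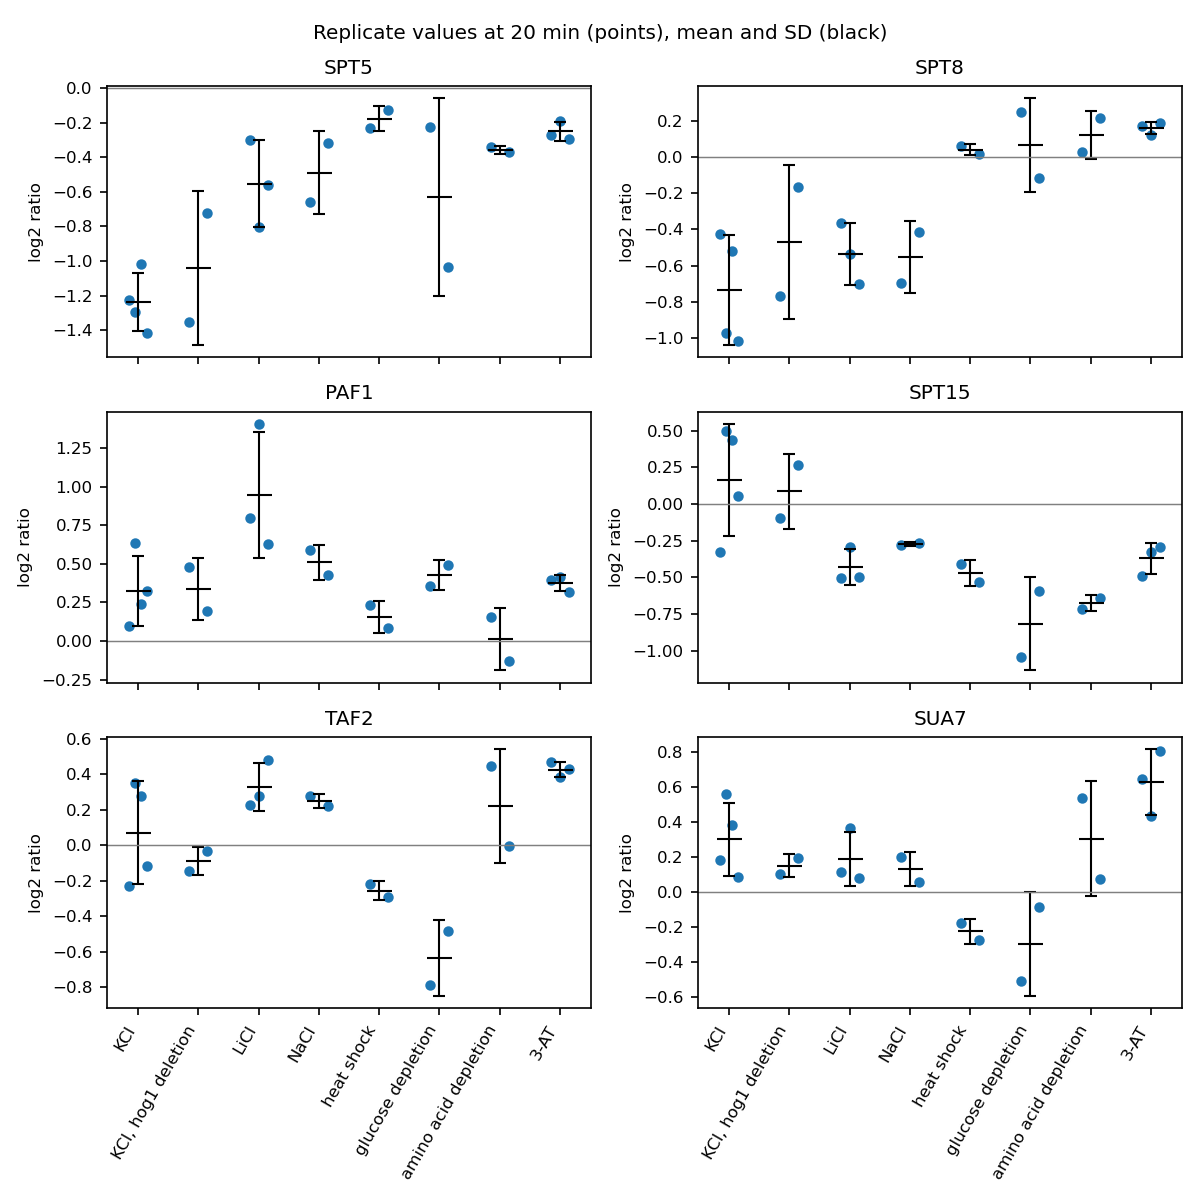
Replicate values at 20 min (points) with mean and SD (black) of SPT5, SPT8, PAF1, SPT15, TAF2 and SUA7 in 8 courses; the vertical axes are log2 ratios, each with its own range. SPT5 and SPT8 lie below 0 in all 4 salt courses, and TAF2 lies above 0 in LiCl, NaCl and 3-AT and below 0 in heat shock and glucose depletion.

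The TAFs, proteins that join TBP in TFIID, were called in 8.15% of their tests (12.84% for all named oligos), 7 higher and 4 lower. Of their 9 oligos 4 were never called at 20 min, as were 23.06% of all named oligos. TAF1 (YGR274C), the large scaffold subunit of TFIID, fell in glucose depletion. Its replicate values at 20 min were -0.51 and -1.35, with a mean of -0.93 ± 0.60 (n = 2; adjusted p = 1.31e-04). It was lowest after 5 min, with values of -0.73 and -1.60 and a mean of -1.17 (adjusted p = 1.67e-06), stood at -1.04 after 10 min, and was at -0.53 ± 0.05 after 40 min (adjusted p = 0.0316). Batch F was below batch B at each of these 4 times. Glucose depletion and LiCl at 40 min (0.41, adjusted p = 0.0425) were the courses in which TAF1 was called.

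TAF2 (YCR042C), which contacts the initiator region of promoters, moved both ways. It fell in glucose depletion, with values of -0.79 and -0.48 (mean -0.63 ± 0.22, n = 2; adjusted p = 1.45e-04), and was called there at all 4 times. In 3-AT it rose, with values of 0.47, 0.38 and 0.43 (mean 0.43 ± 0.04, n = 3; adjusted p = 0.00461). LiCl gave 0.23, 0.28 and 0.48 (mean 0.33 ± 0.14, n = 3; adjusted p = 0.0143). It was further called higher at 40 min in NaCl (0.46) and SMM (0.48), and lower at 40 min in heat shock (-0.39, adjusted p = 0.0227).

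TAF13 (YML098W), a histone-fold subunit of TFIID, had the most calls of all members, 19 of 60 over all times. It rose in heat shock, with values of 1.53 and 0.64 (mean 1.08 ± 0.63, n = 2; adjusted p = 7.57e-08), in amino acid depletion, with 0.96 and 1.06 (mean 1.01 ± 0.07, n = 2; adjusted p = 4.54e-07), and in glucose depletion, with 0.62 and 0.58 (mean 0.60 ± 0.03, n = 2; adjusted p = 0.00220). In KCl it was lower, with values of -0.26, -0.94, -0.44 and -0.84 (mean -0.62 ± 0.32, n = 4; adjusted p = 5.69e-06). The hog1 deletion strain gave -0.48 and -0.55 in KCl (mean -0.51 ± 0.05, n = 2; adjusted p = 0.0319). TAF13, SRB2 oligo 1 and FCP1 belong to 25 oligos of otherwise unrelated genes that correlated above 0.8 over all replicate values with oligo 3 of NMD2, a nonsense-mediated decay gene. Their correlations were 0.870, 0.854 and 0.813; the values share arrays and batches, and the part of this shared movement in the results for these 3 oligos was not tested. Without the 3, the counts at 20 min were 1 higher and 3 lower in KCl, 2 and 1 in heat shock, 4 and 1 in amino acid depletion, 5 and 4 in glucose depletion, and 0 and 3 in KCl in the hog1 deletion strain.

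Of the other TAFs, TAF9 (YMR236W), shared by TFIID and SAGA, rose in 3-AT, with values of 0.60, 0.39 and 0.64 (mean 0.54 ± 0.13, n = 3; adjusted p = 0.00104). TAF4 (YMR005W), a further histone-fold subunit, rose in amino acid depletion, with values of 0.41 and 0.47 (mean 0.44 ± 0.04, n = 2; adjusted p = 0.00421), and was called there at all 4 times between 0.35 and 0.44. TAF8 (YML114C) was not called at 20 min, and its call at 40 min in LiCl came from 1 of 3 values (0.14, -2.22 and 0.06). TAF14 (YPL129W), a subunit shared by TFIID, TFIIF and chromatin remodellers, has an intron, and the annotation does not say which of its 3 oligos reads the exon, the intron or their junction. None of the 3 was called at 20 min, where their means lay between -0.37 and 0.39. Oligo 3 was called at 40 min in 3-AT (0.47), in histidine depletion of the his3 deletion strain (0.33) and, downward, in heat shock (-0.41).

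**Figure D4:**
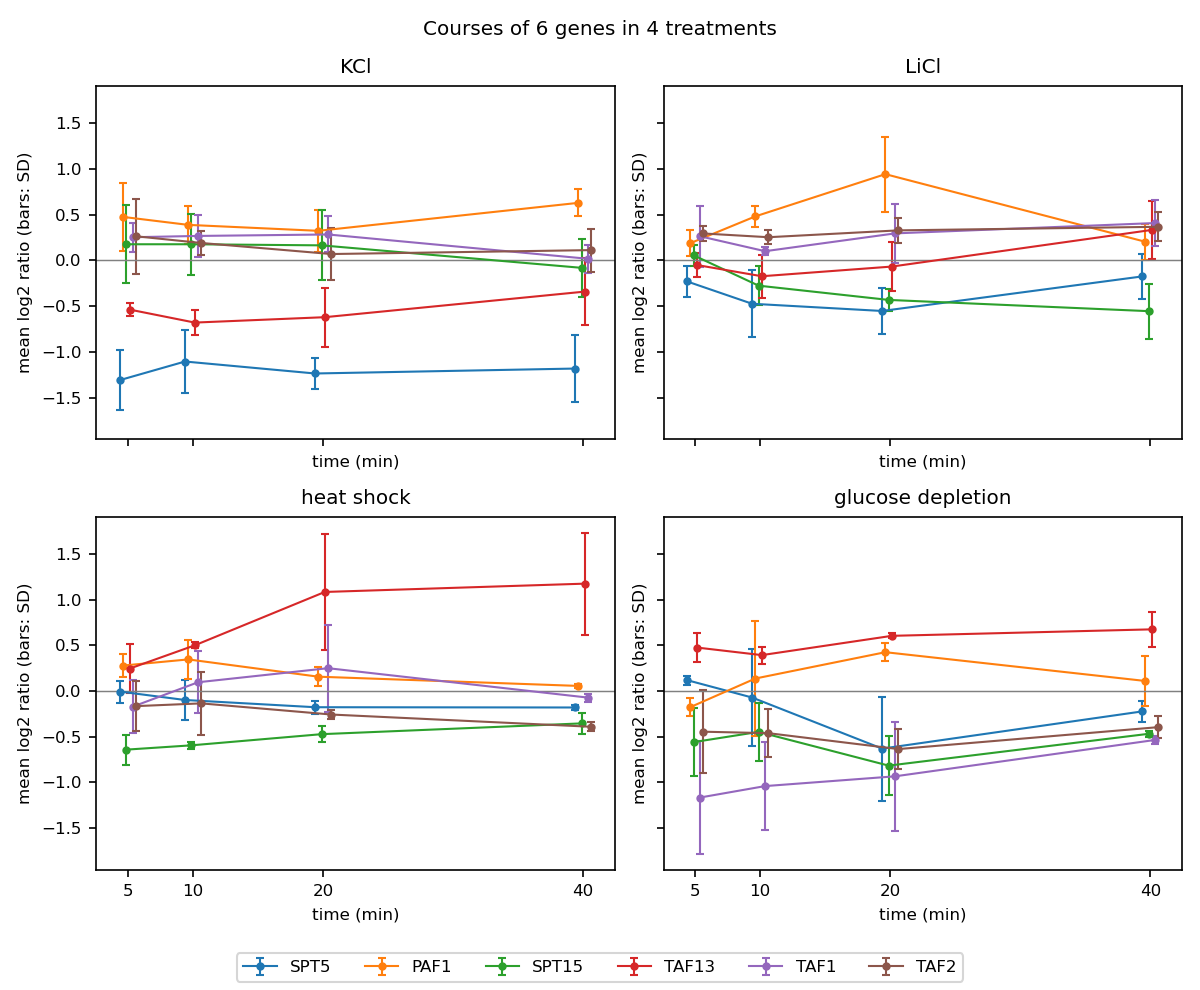
Mean log2 ratio (vertical axis, the same in all panels; bars are SD) against time after treatment (5, 10, 20 and 40 min) for SPT5, PAF1, SPT15, TAF13, TAF1 and TAF2 in KCl, LiCl, heat shock and glucose depletion. SPT5 is flat near -1.2 in KCl, SPT15 rises from -0.64 to -0.35 in heat shock and falls from 0.06 to -0.55 in LiCl, and TAF1 rises from -1.17 to -0.53 in glucose depletion.

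SRB2 (YHR041C) encodes Mediator's Med20 subunit and has an intron. Oligos 1 and 2 fell in KCl and oligo 3 was not called. At 20 min in KCl the values of oligo 1 were -0.50, -1.11, -0.94 and -0.88 (mean -0.86 ± 0.26, n = 4; adjusted p = 1.39e-04), and those of oligo 2 were -0.40, -1.23, -0.82 and -0.89 (mean -0.83 ± 0.34, n = 4; adjusted p = 2.67e-08). Oligo 3 gave 0.17, -0.31, -0.15 and 0.01 (mean -0.07 ± 0.21, n = 4; adjusted p = 0.797). In the hog1 deletion strain oligo 1 stood at -0.74 and -1.04 (adjusted p = 0.0223) and oligo 2 at -0.73 and -0.86 (adjusted p = 0.00119). The difference between oligos of the gene was not tested. In heat shock oligo 1 rose, with values of 1.79 and 0.64 (mean 1.21 ± 0.81, n = 2; adjusted p = 1.62e-04), where oligo 2 had a mean of 0.34 and oligo 3 one of 0.39. In glucose depletion oligo 3 was the called one, from unlike values of 1.44 and 0.22 (mean 0.83 ± 0.86, n = 2; adjusted p = 0.00199), the higher of which came from a single array of batch B.

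**Figure D5:**
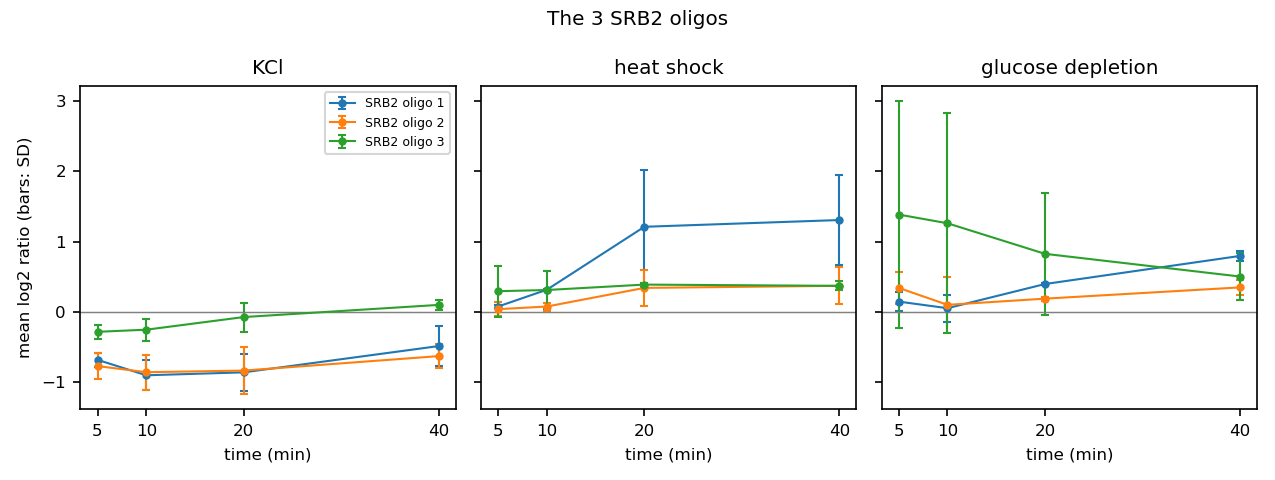
Mean log2 ratio (vertical axis; bars are SD) of the 3 SRB2 oligos against time (5, 10, 20 and 40 min) in KCl, heat shock and glucose depletion. Oligos 1 and 2 lie together below 0 in KCl while oligo 3 stays near 0; oligo 1 climbs above the others in heat shock; oligo 3 carries SD bars of over 1 at the first times of glucose depletion.

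MED4 (YOR174W), a subunit of Mediator's middle module, was not called at 20 min in any course. It was called in glucose depletion at 5 and 10 min, but its values at 5 min were 2.06 in batch B and 0.21 in batch F.

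Among the SAGA genes SPT8 (YLR055C), whose product presents TBP, fell in all 4 salt courses and was called in no other at 20 min. In KCl its values were -0.43, -0.97, -0.52 and -1.02 (mean -0.73 ± 0.30, n = 4; adjusted p = 2.58e-09). LiCl gave -0.37, -0.54 and -0.70 (mean -0.54 ± 0.17, n = 3; adjusted p = 7.94e-05), and NaCl -0.69 and -0.41 (mean -0.55 ± 0.20, n = 2; adjusted p = 0.00328). Every replicate was below 0. In KCl in the hog1 deletion strain the values were -0.77 and -0.17 (mean -0.47 ± 0.43, n = 2; adjusted p = 0.0266). In the courses without salt the means of SPT8 at 20 min did not go below -0.08. In sorbitol, where the spread over all named oligos was narrow, its 4 values lay between -0.02 and 0.10. It was below 0 in 27 of the 30 further KCl values, with a median of -0.70.

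NGG1 (YDR176W, the Ada3 subunit), GCN5 (YGR252W, the histone acetyltransferase) and ADA2 (YDR448W), which form one module of SAGA, were not called in salt at 20 min. NGG1 was called in glucose depletion from unlike values of 1.61 in batch B and 0.31 in batch F (mean 0.96 ± 0.92, n = 2; adjusted p = 1.22e-04), and the same batch B series stood at -1.25 after 5 min. It was also called higher in amino acid depletion at 5, 10 and 40 min, between 0.62 and 0.69. GCN5 rose in amino acid depletion, with values of 0.63 and 0.17 (mean 0.40 ± 0.33, n = 2; adjusted p = 0.0271). ADA2 was not called at 20 min and passed in KCl at 40 min (0.60 ± 0.32, n = 4; adjusted p = 0.0198).

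Of the phosphatases of the C-terminal domain, FCP1 was called in KCl at 20 min and SSU72 was not. FCP1 (YMR277W) fell, with values of 0.04, -0.64, -0.40 and -0.79 (mean -0.45 ± 0.36, n = 4; adjusted p = 1.92e-04), with batch A near 0. SSU72 (YNL222W) was at 0.37, 0.39, 0.22 and 0.66 (mean 0.41 ± 0.18, n = 4; adjusted p = 0.0951), which did not pass until 40 min (0.55, adjusted p = 0.0211). FCP1 rose in heat shock, with values of 1.19 and 0.39 (mean 0.79 ± 0.57, n = 2; adjusted p = 5.70e-06), and in amino acid depletion, with 0.22 and 0.56 (mean 0.39 ± 0.24, n = 2; adjusted p = 0.0314). In all 13 replicate values of the rrp6 deletion, which lacks a nuclear exosome exonuclease, over wild type, SSU72 was above 0 (0.07 to 0.89) and CTR9 below 0 (-0.70 to -0.10), with no test.

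RPB7 (YDR404C), the one polymerase subunit among the 28 genes, forms a stalk with Rpb4. It was called in glucose depletion (0.50 and 0.30, mean 0.40 ± 0.14; adjusted p = 0.0428) and, downward, in nitrogen depletion, where the values of -0.13 and -1.16 lay far apart (mean -0.64 ± 0.73, n = 2; adjusted p = 0.0481). The first of these is a batch C value of doubted direction: turned, it gave a mean of -0.52 that did not pass (adjusted p = 0.0506), and without it the call rested on the second value alone. SPT21 (YMR179W), needed for normal transcription of histone genes, was not called at 20 min. In KCl it was raised after 5 min, at 0.40 ± 0.35 (n = 3; adjusted p = 0.0337), and after 10 min, at 0.33 ± 0.10 (n = 4; adjusted p = 0.0357).

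In the 5 courses with no called member, the oligos furthest from 0 did not pass the test. These were TAF9 in inositol depletion (-0.16; adjusted p = 0.999), MED4 in rapamycin (0.47; adjusted p = 0.207), CTR9 in wortmannin (0.61; adjusted p = 0.140), SPT15 in histidine depletion of the his3 deletion strain (-0.30; adjusted p = 0.335) and CTR9 in that of the HIS3 strain (0.54; adjusted p = 0.998). The rapamycin mean of MED4 came from values of -0.07, 1.51, 0.26 and 0.17, the first of them of doubted direction. With it turned the MED4 mean was 0.50 and passed (adjusted p = 0.0324), and SRB2 oligo 1 (0.44), TAF13 (0.34), SPT8 (0.29), GCN5 (0.27), TAF9 (0.26) and CTK1 (-0.35) passed as well. Means in inositol depletion stayed between -0.16 and 0.11 for all 32 oligos.

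Potassium and lithium salt were compared directly at 20 min, at doses that differ (1 M KCl and 300 mM LiCl) and over untreated cells in both. Of 32 member oligos 8 differed, 1 higher and 7 lower in KCl, where 14.6% of all named oligos were higher and 15.6% lower, or 30.3% in all. SPT15 was the higher one, by 0.60 (95% interval 0.25 to 0.95; adjusted p = 0.00564). The largest of the 8 differences was that of SRB2 oligo 1, at -0.84 (-1.40 to -0.28; adjusted p = 0.0169), followed by SPT5 at -0.68 (-1.11 to -0.26; adjusted p = 0.00912). PAF1 differed by -0.62 (-0.96 to -0.28, adjusted p = 0.00327) and CTK1 by -0.58 (-0.95 to -0.21, adjusted p = 0.0126). The highest LiCl values of both came from the same batch H replicate. It read 1.41 for PAF1 (others 0.80 and 0.63) and 1.12 for CTK1 (others 0.29 and 0.18). SRB2 oligo 2 (-0.58), TAF13 (-0.55) and FCP1 (-0.55) also passed, and without the 3 oligos that follow NMD2 the count was 5. Both salts were measured in batch H, with 1 replicate of KCl and 2 of LiCl. There all 8 differences kept their sign, for example -0.87 for SPT5, -0.78 for PAF1 and 0.45 for SPT15. These replicates are part of the comparison that picked the 8 oligos, so the kept signs are not separate evidence. SPT8 did not pass, at -0.20 with an interval of -0.50 to 0.11 (adjusted p = 0.338). SPT15 and SPT5 therefore order the salts in opposite ways: SPT15 was lower in LiCl, and SPT5 lower in KCl.

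To ask which of these changes differ without HOG1, the deletion strain was set against wild type in KCl. No member oligo differed at 20 min (0 of 32, and 0 at an unadjusted p under 0.05), as for all named oligos (0% called by limma, 1 at an unadjusted p under 0.05). The largest difference among the members was that of SPT8, at 0.27 with a 95% interval of -0.08 to 0.61. For SPT5 the difference was 0.20 (-0.28 to 0.68), for SRB2 oligo 2 it was 0.04 (-0.39 to 0.46), and for PAF1 it was 0.02 (-0.37 to 0.40). With 2 replicates of the deletion strain, intervals of this width do not show that the strains respond alike. Within batches the SPT5 difference was -0.13 in batch A and 0.43 in batch G. Between the his3 deletion and HIS3 strains in histidine depletion no member oligo differed either, where 0.0686% of all named oligos were called; TAF2 had an unadjusted p of 0.0482 at a difference of 0.27, and CTR9 was furthest apart, at -0.39. Within batches the TAF2 difference was 0.17 in batch A, 0.29 in batch C and 0.34 in batch G, and that of CTR9 was 0.16, -1.004 and 0.28.

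Few members moved along a course. Of 480 tests of 40 against 5 min, 11 were called (2.29%, against 3.44% of all named oligos). In KCl SPT21 went from 0.40 to -0.30, a difference of -0.70 (adjusted p = 0.0280; 3.09% of all named oligos called). In LiCl SPT15 fell by 0.61 (adjusted p = 0.0171; 14.3% called). TFA1 was called in LiCl at -0.97 (adjusted p = 0.00693), but its values at 40 min were -0.13, -2.76 and 0.30, so that 1 replicate made the difference. Heat shock had 3 rising members: TAF13 by 0.93 (adjusted p = 0.00571), FCP1 by 0.65 (adjusted p = 0.0307) and SRB2 oligo 1 by 1.23 (adjusted p = 0.0302), the 3 oligos that follow NMD2; 5.63% of all named oligos were called. At 40 min in heat shock TAF13 stood at 1.57 and 0.78, and at 5 min at 0.05 and 0.44.

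In glucose depletion 3 members were called at 40 against 5 min, where 7.07% of all named oligos were: NGG1 at 0.94, SPT21 at -1.17 and TAF14 oligo 1, which was measured in 1 replicate at 40 min, at -1.58. Each rests on the single batch B array of 5 min, which read -1.25, 1.82 and 3.33 for these oligos, while batch F read 0.12, 0.00 and -0.08. In rapamycin TAF14 oligo 1 was called at 0.99 (adjusted p = 0.0334, 0.892% of all named oligos called), again from 1 low replicate at 5 min (-0.09, -2.24 and -0.15). With the batch C identifiers turned this difference was 0.93 (limma adjusted p = 0.00427). In wortmannin SRB2 oligo 1 rose by 1.28 (adjusted p = 0.0131, 10% called), with values of 1.90 and 0.57 at 40 min. With the identifiers turned this rise was 1.35 (limma adjusted p = 4.51e-06).

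Glucose depletion had its most calls at the first times. After 5 min without glucose 13 of 32 member oligos were called, 8 higher and 5 lower (28.8% of all named oligos), and after 10 min 14 were, 10 higher and 4 lower (31.9%), against 10 at 20 min and 6 at 40 min. Of these, TAF1, TAF2, SPT15, BUR6 and TAF13 were called at all 4 times. In LiCl 11 were called at 40 min, 7 higher and 4 lower (33%), and in KCl 10 at 40 min, 4 higher and 6 lower (28.8%). Among the higher ones in LiCl at 40 min were TAF2 (0.37), TAF1 (0.41), TAF13 (0.33), TAF4 (0.25), GCN5 (0.32), RTF1 (0.39) and TFG2 (0.41). The lower calls of TAF8 and TFA1 came from 1 replicate of batch H, at -2.22 and -2.76. Their other values were 0.14 and 0.06 for TAF8 and -0.13 and 0.30 for TFA1.

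Groups with 1 replicate give values with no test. In KCl the lowest members at 20 min were SPT5 and SPT8 in the ckb1ckb2 deletion (-1.22 and -0.93) and in the edc2 deletion (-1.07 and -0.76), and SRB2 oligo 1 and SPT5 in the rrp6 deletion (-1.10 and -0.98). The highest were PAF1 and SUA7 in ckb1ckb2 (0.38 and 0.35), SPT15 and PAF1 in edc2 (0.48 and 0.45), and SSU72 and PAF1 in rrp6 (0.54 and 0.43). The wild type after 60 min had SPT5 at -1.39, SPT8 at -0.63, PAF1 at 1.01 and NGG1 at 0.51. Over cells before treatment, KCl gave SPT5 -1.53, SPT8 -0.83, SSU72 0.62 and PAF1 0.48, and LiCl gave SPT5 -0.65, SPT8 -0.64, PAF1 0.67 and NGG1 0.57. SPT5 and SPT8 were thus the lowest members in both salts with this other control, with SRB2 oligo 2 close to SPT8 in KCl (-0.81). Over untreated cells SRB2 oligos 1 and 2 had lower means than SPT8 in KCl at 20 min. In sorbitol the ends were TAF1 (-0.38), SPT21 (-0.24), ADA2 (0.29) and CTR9 (0.33).

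In 3-AT the lowest and highest members at 20 min were SPT15 (-0.50), TFG2 (-0.20), SUA7 (0.39) and TAF9 (0.42) in the ckb1 deletion. The ckb2 deletion had SPT5 (-0.39), SPT15 (-0.37), TAF9 (0.46) and TAF2 (0.54), and the ckb1ckb2 deletion SPT15 (-0.36), TAF14 oligo 1 (-0.22), PAF1 (0.42) and TAF9 (0.43). Over all 12 values of these 3 strains SUA7 was above 0 (0.25 to 0.79), TAF2 (0.07 to 0.58) and TAF9 (0.04 to 0.53) as well, and TFG2 was below 0 (-0.34 to -0.18). SPT15, which had not passed in wild type 3-AT (-0.37; adjusted p = 0.0612), was below 0 in all 12 (-0.50 to -0.13). SMM was given to the cka1, cka2, ckb1 and ckb2 deletions, which lack subunits of casein kinase 2. There SPT15 (-0.51 to -0.24) and TAF1 (-0.59 to -0.27) were below 0 in 8 of 8 values, and TAF2 was above 0 in 8 of 8 (0.09 to 0.40). Other members also kept 1 sign in all 8, such as RPB7 (0.22 to 0.59) and TAF4 above 0 and SRB2 oligo 1 (-0.56 to -0.16) below 0. All 8 are batch B arrays of 1 dye orientation, and the dye effect was not taken off these values. DTT, a reducing agent, gave SUA7 above 0 in 8 of 8 values at 1 and 10 mM (0.15 to 0.61) and PAF1 in 8 of 8 (0.17 to 0.51). How many of all named oligos kept 1 sign in these 3-AT, SMM and DTT groups is not given here.

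A second heat shock course with 1 replicate, in batch F, had SRB2 oligo 1 (1.55) and TAF13 (0.87) highest and SPT15 (-0.35) and TAF14 oligo 2 (-0.32) lowest at 20 min. Over its 4 times SPT15 stayed below 0 (-0.42 to -0.19) and TAF13 above 0 (0.34 to 1.21). Phosphate depletion had ADA2 (-0.30), SPT5 (-0.28), PAF1 (0.30) and SUA7 (0.34) at its ends, and TBB alone had MED4 (-0.24), SRB2 oligo 2 (-0.23), SPT21 (0.48) and TAF1 (0.49). Before treatment the rrp6 deletion differed from wild type most in MED4 (-0.60), FCP1 (-0.46), TAF2 (0.48) and SSU72 (0.89).

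Genes of the same machinery that the symbol pattern does not name were counted in a list of 29 oligos, such as further subunits of the polymerase, TFIIH, Mediator and the 3'-end machinery. In KCl 5 of these were called higher and 2 lower, with RPO26 oligo 3 (0.58), a subunit shared by the 3 nuclear polymerases, and CCL1 (0.40), a TFIIH cyclin, furthest from 0. RPO26 oligo 1 was among the lower ones (-0.23, limma adjusted p = 0.0432), so the oligos of this gene did not move together. LiCl had 8 higher and 5 lower, with MOT1, which removes TBP from DNA, at -1.08 (adjusted p = 8.50e-10) and SSN3, Mediator's kinase, at 0.91. MOT1 fell in glucose depletion too (-0.74), where the list had 3 higher and 4 lower. NaCl had 6 higher and 0 lower, with the capping enzyme gene CET1 (1.07) and CCL1 (0.88) furthest. Heat shock had 1 higher and 1 lower, and amino acid depletion 4 and 1, with NCB2 oligo 2, the partner of BUR6 in NC2, at -0.89 where BUR6 was raised. In glucose depletion that NCB2 oligo stood at -0.99. The list had 2 higher in 3-AT, 1 higher in SMM and 1 higher in wortmannin, and no call in the remaining 6 courses. Of all named oligos 29.2% were called in KCl, 33.8% in LiCl, 15.5% in NaCl and 29.1% in glucose depletion. The shares were 25.2% in heat shock, 22.7% in amino acid depletion, 9.13% in 3-AT, 6.18% in SMM and 10.7% in wortmannin. The difference between the list and all named oligos was not tested.

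Subunits of RNA polymerases I and III, which make ribosomal and transfer RNA, were set beside the members as 6 oligos. Their medians at 20 min were -1.08 in LiCl, -0.93 in glucose depletion, -0.60 in NaCl, -0.54 in amino acid depletion and -0.42 in heat shock, with 4, 3, 3, 3 and 2 of 6 called lower and none higher. In rapamycin and wortmannin 2 of 6 were called lower, and in 3-AT 1 was; the shares of all named oligos called are those given above. RPC19, shared by both polymerases, reached -2.10 in glucose depletion and -1.65 in LiCl. In KCl none of the 6 was called and their median was 0.20. Medians of the member oligos in these courses lay between 0.02 and 0.26; the difference between the lists was not tested.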

How the data were processed

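For each of 9216 spots the authors deposited 1 ratio, taken here to be the log2 of channel 1 over channel 2 and already centred near 0; the log base, background correction and normalization are not given in the sources used here, and no intensities were used, so signal over background was not examined. Per the labels' protocols, total RNA from acid phenol extraction was copied into aminoallyl cDNA and coupled to Cy3 or Cy5. Ratios were turned to treated over control from the labels; the sign was changed for 11 of 311 array identifiers whose treated RNA is channel 2. The 6 copies of an oligo were averaged, then both dye orientations (present for 282 identifiers), into 1 replicate value. All 79 groups with 2 or more replicates (195 replicate values) entered 1 limma fit (limma 3.58.1, R 4.3.3; 116 residual degrees of freedom), with two-sided moderated tests, Benjamini-Hochberg adjustment within a comparison across all 1457 named oligos; calls had an adjusted p under 0.05. The fit was tested on simulated data. The 116 groups with 1 replicate got no test. Within a group the lone value of an oligo missing in other replicates was used as it stood.

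The members and gene lists were chosen with earlier results of these data known. Genes named with values were, in each 20 min comparison, the called members (at most 4 highest and 4 lowest), or the member furthest from 0 where none was called; any member called in 5 or more courses; called members of each difference (at most 4 in each direction) and of 40 against 5 min (at most 3); in groups of 1 replicate the 2 highest and 2 lowest, described for a selection of those groups; and of the pathway list counts with the 2 called oligos furthest from 0. Alternatives covered the averaging of copies, incomplete arrays, dye, batch and batch C direction, the groups fitted, the adjustment, and each replicate left out.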

Additional observations from a re-analysis of the deposited data

Results flagged for a closer look

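The differences between KCl and LiCl at 20 min passed the limma test for 8 member oligos: SRB2 oligo 1 (-0.84), SPT5 (-0.68), PAF1 (-0.62), CTK1 (-0.58), SRB2 oligo 2 (-0.58), TAF13 (-0.55) and FCP1 (-0.55) were lower in KCl and SPT15 (0.60) was higher. For CTK1 the LiCl mean rests largely on 1 replicate (1.12, others 0.29 and 0.18), which also gave the highest PAF1 value. The doses differ, and whether dose or ion sets these values cannot be told apart.

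In 11 of 128 groups of 4 replicate values, each of 1 oligo in 1 course, 1 value stood far from the other 3. Chance gives about 1 in 20 such groups. Oligos of a course share the same arrays, so the groups are not independent, and their count was not tested. None of the 11 oligos was called there. In KCl TAF14 oligo 1 read -0.16 in batch H where the others lay between 0.14 and 0.17, and CTK1 read -0.27 in a batch G replicate against 0.01 to 0.05. In rapamycin, where 3 of 4 replicates are of batch C, the replicate of doubted direction stood apart for GCN5, at -0.24 (others 0.25 to 0.33), and for SPT15, at 0.24 (others -0.21 to -0.18). With the sign turned these read 0.24 and -0.24, next to the other replicates. Another batch C replicate stood apart for CTK1, at -1.14 (others -0.17 to -0.01). In histidine depletion of the his3 deletion strain 1 of the 2 batch C replicates stood apart for SRB2 oligo 3, at -0.35 (others 0.04 to 0.05). The same replicate stood apart for TAF14 oligo 2, at 0.34 (others -0.06 to -0.005), and for TOA2, at -0.16 (others -0.09 to -0.08). A batch A replicate stood apart there for SRB2 oligo 1, at 0.14 (others 0.01 to 0.03). For TOA2 and SRB2 oligo 1 the gap is small. In the HIS3 strain 1 of the 2 batch C replicates stood apart for FCP1, at 0.21 (others -0.21 to -0.20), and RTF1, at -0.35 (others -0.04 to 0.01).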

How the results depend on the processing

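No paired analysis was possible because the labels give no replicate numbers; the title prefixes that groups share were used as batches, in within-batch differences and as a random block. The counts below are of member oligos called at 20 min, or of calls at 40 against 5 min, with the reported count after "from". With the median of copies, 3-AT had 7 (from 4), SMM 3 (from 1) and nitrogen depletion 0 (from 1). With the dye effect taken off arrays of 1 orientation, SMM had 2. Without arrays lacking over 20% of spots, 3-AT had 7, SMM 3, nitrogen 0, glucose depletion 3 (from 10), wortmannin 1 (from 0) and 40 against 5 min 6 (from 11). With the batch C identifiers turned, nitrogen had 0, rapamycin 7 (from 0), wortmannin 1 and 40 against 5 min 17; with them left out, nitrogen had 2, rapamycin 5 and wortmannin 1. With batch as a random block, SMM had 2, nitrogen 0, wortmannin 1 and 40 against 5 min 18. Fitted on the groups of each course alone, NaCl had 7 (from 2), 3-AT 12, SMM 2, amino acid depletion 1 (from 7), nitrogen 0, glucose 0, histidine depletion of the his3 deletion strain 5 (from 0), KCl in the hog1 deletion 8 (from 5), and his3 against HIS3 1 (from 0). With p-values adjusted over all comparisons, SMM had 2 and rapamycin 1. The next alternatives were chosen after seeing the data. Without SRB2 and TAF14, KCl in hog1 had 3 and 40 against 5 min 7. Without the 3 oligos that follow NMD2, KCl had 4 (from 7), heat shock 3 (from 6), KCl in hog1 3, KCl against LiCl 5 (from 8) and 40 against 5 min 7. The cause of these shifts was not tested, and the shares of all named oligos under each alternative are not given here.

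Leaving out 1 replicate in turn gave 24 to 31 calls at 5 min (from 33), 26 to 38 at 10 min (from 41), 21 to 50 at 40 min (from 56) and 6 to 11 for 40 against 5 min. At 20 min it gave 6 to 8 in KCl, 4 to 6 in LiCl, 0 to 1 in NaCl, 0 to 5 in heat shock (0 without the batch A replicate), 1 to 4 in 3-AT, 0 in SMM, 3 to 5 in amino acid depletion, 0 to 1 in nitrogen depletion, 2 to 5 in glucose depletion, 0 to 5 in rapamycin, 0 to 2 in KCl in hog1 and 5 to 8 for KCl against LiCl. It gave 0 in inositol, wortmannin and both histidine courses, and 0 for both strain differences. A lone remaining replicate is assumed to vary like the other groups.

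Of the 49 called member values at 20 min none changed direction under 612 alternative values, 99 of which no longer passed. The alternatives reuse most of the same arrays, so a change of direction was unlikely from the start. Without some 1 replicate, 39 of the 49 were lost. The 10 kept in every alternative were FCP1, SPT5, SPT8, SRB2 oligos 1 and 2 and TAF13 in KCl, PAF1 and SPT8 in LiCl, TAF13 in amino acid depletion and TAF9 in 3-AT.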
